A study of Homo sapiens with 4 samples.

Results

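The genes described here are 9 genes for matrix proteases and their inhibitors: the matrix metalloproteinases MMP1, MMP2, MMP9 and MMP14, the urokinase PLAU and its receptor PLAUR, and the tissue inhibitors TIMP1, TIMP2 and TIMP3. They were taken by gene name from a count table of 60544 genes, and all 9 were present and passed the low-count filter. The libraries hold poly(A) RNA of PC3, an established human prostate cancer cell line. The 2 control libraries carry the label shNC and the 2 others the label sh812, which was read as the knockdown arm because the design text speaks of a METTL3 knockdown and a control; no further treatment, time or allele is given. The knockdown arm thus rests on 1 hairpin label, and whether the cells were a pool or a clone, or the replicates separate cultures, is not given in the sources used here, so that p-values measure the spread between these libraries, which may be technical.

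Matrix metalloproteinases are zinc-dependent enzymes that are made as inactive precursors and cut collagens, laminins and other matrix proteins. Urokinase, held at the cell surface by its receptor, turns plasminogen into plasmin, which degrades fibrin and can activate some of the metalloproteinase precursors. TIMPs bind the active site of metalloproteinases and block it, and TIMP2 in addition helps the membrane enzyme MMP14 to activate the MMP2 precursor. METTL3 carries the catalytic activity of the enzyme complex that places N6-methyladenosine on messenger RNA, and GGACT is a core form of the sequence it methylates.

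Total counts ranged from 31450648 to 37041330 per library. METTL3 was at 44.4 and 43.6 CPM (counts scaled to library size with edgeR's TMM factors) in shNC and at 7.66 and 8.75 CPM in sh812, a log2 fold change of -2.42 (SE 0.11, edgeR adjusted p = 5.54e-14). Of 16802 genes tested, 1822 (10.8%) were called at an adjusted p under 0.05. The epithelial markers KRT8, KRT18, EPCAM and CDH1 were detected in every library, at 10.6 to 254 CPM. KRT18, EPCAM and CDH1 were called higher in sh812, with log2 fold changes of 0.30, 0.45 and 0.57 (edgeR adjusted p = 0.00793, 0.000128 and 0.00511), and KRT8 had 0.13 (adjusted p = 0.186). VIM and CD44, known in this line, were at 365 to 641 CPM. Their log2 fold changes were -0.177 and -0.141, and neither was called (edgeR adjusted p = 0.055 and 0.115). KLK3 was at 0 counts throughout. Of the markers of other cell types, PTPRC, CD68 and DCN stayed under 1 CPM, while COL1A1, COL1A2 and PECAM1 were at 9.49 to 39.4 CPM. PECAM1 (32.9 and 38.5 CPM in sh812 against 23.8 and 23.7) and COL1A2 (13.6 and 13.4 against 9.49 and 9.55) were called higher (edgeR adjusted p = 0.000222 and 0.0116). COL1A1 was at 29.3 and 34.5 CPM in sh812 against 37.6 and 39.4, and was not called (edgeR adjusted p = 0.0589). The part of these marker differences in the TIMP1 and TIMP2 results was not tested.

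Within the set, both inhibitors that PC3 cells expressed at a substantial level changed, in opposite directions, and no protease gene passed the test. TIMP1 was 1.28-fold higher in sh812, and TIMP2 fell by 15.8%. These were the 2 of 9 genes called, against 10.8% of all genes tested: 1 was higher, against 5.43%, and 1 lower, against 5.42%. The 2 groups did not overlap in 6 of the 9 genes, against 53.6% of all genes tested. Their median log2 fold change was -0.047, beside -0.0056 for all genes tested. In bulk RNA, fewer cells of a type and less RNA per cell cannot be told apart.

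TIMP1 was the most abundant inhibitor. It lies on chromosome X from 47582313 to 47586789 on the plus strand (GENCODE 29, GRCh38), with its exons free of other annotated exons. Its level was 455 and 496 CPM in the shNC libraries and 567 and 649 CPM in the sh812 libraries. Both sh812 values stood above both control values, and sh812 replicate 2 was the highest. The group means were 475.8 ± 28.9 and 607.7 ± 57.9 CPM (SD, n = 2). The fitted log2 difference was 0.35 (SE 0.064, 95% interval 0.22 to 0.49, edgeR adjusted p = 0.000743). Without sh812 replicate 2 the log2 fold change was 0.25 and the call was lost (edgeR adjusted p = 0.109); the lone sh812 library was then assumed to vary like the controls. With any 1 of the other libraries left out, the call held.

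TIMP2 moved the other way. It lies on chromosome 17 from 78852977 to 78925387 on the minus strand. Its level was 262 and 284 CPM in shNC and 227 and 233 CPM in sh812. The sh812 values were close together and both under the lower control. The means were 273.1 ± 15.6 and 229.9 ± 4.27 CPM (SD, n = 2). The fitted log2 difference was -0.25 (SE 0.06, 95% interval -0.37 to -0.12, edgeR adjusted p = 0.00866). With a single sh812 library the direction held and the call did not: the log2 fold change was -0.23 without replicate 1 (edgeR adjusted p = 0.202) and -0.27 without replicate 2 (edgeR adjusted p = 0.0952). With shNC replicate 1 or 2 left out it was -0.30 or -0.18, both called. AC022966.1 and CEP295NL share exon bases with TIMP2 and had at most 5 counts in a library.

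TIMP3, an inhibitor that stays bound to the matrix, was hardly expressed. It lies on chromosome 22 from 32801701 to 32863043. It had 48 and 22 counts in shNC and 32 and 30 counts in sh812. The sh812 counts lay between the control counts. The log2 fold change of -0.18 had a 95% interval from -1.12 to 0.76, and a difference was not detectable at this depth (edgeR adjusted p = 0.866).

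The ratio of TIMP1 to TIMP2 within a library does not depend on how libraries are scaled. Per kb of exon, TIMP1 exceeded TIMP2 by 6.35 and 6.39 times in shNC and by 9.13 and 10.2 times in sh812. The control ratios were nearly equal and both sh812 ratios were higher. The change was 1.51-fold, and with 2 libraries against 2 the smallest two-sided exact permutation p is 0.333. The trend with transcript length described below was not removed from this ratio. With it removed, the log2 fold change of TIMP1 was 0.255 in place of 0.353, and that of TIMP2 -0.234 in place of -0.248. TIMP1 made up 86.3% and 86.4% of the summed per-kb level of the 3 TIMP genes in shNC, and 90.1% and 91.0% in sh812. The share of TIMP2 was 13.6% and 13.5%, then 9.86% and 8.94%.

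**Figure D1:**
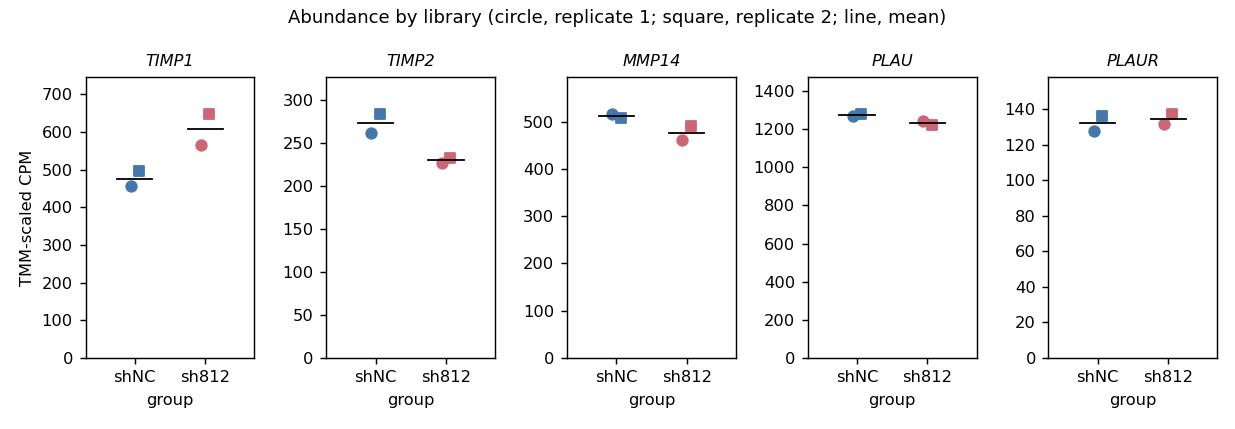
Abundance in TMM-scaled CPM (vertical axes from 0) of TIMP1, TIMP2, MMP14, PLAU and PLAUR in each library, with circles for replicate 1, squares for replicate 2 and lines for group means. TIMP1 is higher and TIMP2 lower in both sh812 libraries, while PLAU and PLAUR lie close together in all 4.

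Transcript length moved with the comparison and was examined beside these calls. Over 12291 genes with a log2 CPM over 1, Spearman's rho of the log2 difference against the length of the longest transcript was -0.329 for sh812 against shNC. For shNC replicate 2 against replicate 1 it was -0.32, and for sh812 replicate 2 against replicate 1 it was 0.0417. Each rho is a correlation across genes, which are not independent replicates. The principal transcript of TIMP1 is 892 bases long and that of TIMP2 is 3652 bases. With each library's length trend removed, TIMP1 had a log2 fold change of 0.255 (edgeR adjusted p = 0.0087) and TIMP2 one of -0.234 (edgeR adjusted p = 0.00957), so both calls held.

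The GGACT sites of these 2 transcripts are shown because METTL3 was the gene knocked down. TIMP1 holds 1 site and TIMP2 holds 3, each given with 10 bases on both sides in the sense of the messenger, GGACT in capitals. The TIMP1 site and the first 2 TIMP2 sites lie in coding sequence and the last TIMP2 site in the 3′ UTR.
TIMP1, chrX:47585547-47585571, plus strand: actgcaggatGGACTcttgcacatc
TIMP2, chr17:78873871-78873895, minus strand: agaaggaagtGGACTctggaaacga
TIMP2, chr17:78855791-78855815, minus strand: gcctctggatGGACTgggtcacaga
TIMP2, chr17:78853190-78853214, minus strand: aagaaatattGGACTtgctgccgta
The sequences come from the GENCODE 29 transcripts. On the sense strand, TIMP1 had 1.12 sites per kb and TIMP2 0.821, beside a median of 0.92 over 16627 tested genes with a transcript sequence. The highest densities in the set were those of PLAU (5 sites, 2.15 per kb) and MMP14 (8 sites, 2.14 per kb), which 92.2% and 92.0% of genes did not exceed. PLAUR had 1 site (0.646 per kb) and TIMP3 had 2 (0.434 per kb). MMP1 had 2 sites (1.02 per kb), MMP2 had 6 (1.60 per kb) and MMP9 had 2 (0.856 per kb). PLAU and MMP14 were among the 7 genes of the set that were not called. Whether site density bears on the calls was not tested. A match is a stretch of letters and not a measured methylation site.

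MMP14, the membrane-anchored enzyme that cuts collagen at the cell surface, was the most abundant metalloproteinase. It lies on chromosome 14 from 22836557 to 22849027. Its level was 517 and 509 CPM in shNC and 462 and 491 CPM in sh812. Both sh812 values were under both controls, by a margin smaller than the gap between the sh812 libraries. The log2 fold change was -0.11 (SE 0.057, 95% interval -0.22 to 0.011) and did not pass (edgeR adjusted p = 0.256). The interval of the percent change runs from -14.4 to 0.782.

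Set against MMP14, the 2 inhibitors moved apart. The per-kb ratio of TIMP1 to MMP14 was 2.55 and 2.83 in shNC and 3.56 and 3.82 in sh812, a 1.37-fold change. The ratio of TIMP2 to MMP14 was 0.402 and 0.442, then 0.389 and 0.376, which is 0.907 times the control ratio. Neither ratio overlapped between the groups, and 0.333 is again the smallest p this design allows in an exact permutation test. The length trend was not removed from these ratios either. With it removed, the log2 fold change of MMP14 was -0.088 in place of -0.106.

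The soluble metalloproteinases were at low levels. MMP1, the interstitial collagenase, lies on chromosome 11 from 102789920 to 102798160 and had 93 and 71 counts in shNC and 131 and 113 in sh812. In CPM this was 2.45 and 2.25 against 3.73 and 3.16, with both sh812 libraries higher. The log2 fold change of 0.55 (SE 0.24, 95% interval 0.044 to 1.06) did not pass after adjustment over all genes (edgeR adjusted p = 0.16). WTAPP1 runs over MMP1 on the opposite strand, and it had 2 counts in 1 library and 0 in the others.

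MMP2, a gelatinase that cuts type IV collagen, lies on chromosome 16 from 55389700 to 55506691. It had 150 and 105 counts in shNC and 180 and 152 in sh812, or 3.96 and 3.32 against 5.13 and 4.25 CPM. The sh812 libraries were again both higher, with wide spread within each group. Its log2 fold change was 0.36 (SE 0.20, 95% interval -0.06 to 0.78, edgeR adjusted p = 0.286). MMP9, the other gelatinase, lies on chromosome 20 from 46008908 to 46016561 and was nearly silent, with 9 and 13 counts in shNC and 6 and 14 in sh812. The groups overlapped, and the 95% interval of its log2 fold change, -1.69 to 1.32, leaves a change in either direction undetectable at this depth (edgeR adjusted p = 0.916). SLC12A5-AS1, whose exons overlap those of MMP9 on the opposite strand, had 6 to 21 counts, as many as MMP9 itself, and it is not given whether the counting used strand.

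PLAU was the most abundant protease gene of the set. It lies on chromosome 10 from 73909177 to 73917497. Its level was 1269 and 1282 CPM in shNC and 1245 and 1224 CPM in sh812. The sh812 libraries were both lower, by a few percent. The log2 fold change was -0.047 (SE 0.054, edgeR adjusted p = 0.653), and the 95% interval of the percent change runs from -10.4 to 4.51. C10orf55 overlaps PLAU on the opposite strand and had 83 to 170 counts, against 40528 to 48143 for PLAU.

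PLAUR, the anchor of urokinase on the cell surface, lies on chromosome 19 from 43646095 to 43670547. It stood at 128 and 136 CPM in shNC and 132 and 137 CPM in sh812. The groups overlapped. The log2 fold change was 0.027 (SE 0.063, edgeR adjusted p = 0.846), with a 95% interval of the percent change from -6.85 to 11.5. Its sign turned with library size alone (-0.017) and with the length trend removed (-0.047). It also turned without shNC replicate 1 (-0.017) and without sh812 replicate 2 (-0.005). The per-kb ratio of PLAU to PLAUR was 15.0 and 14.2 in shNC and 14.3 and 13.5 in sh812, and overlapped between the groups.

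**Figure D2:**
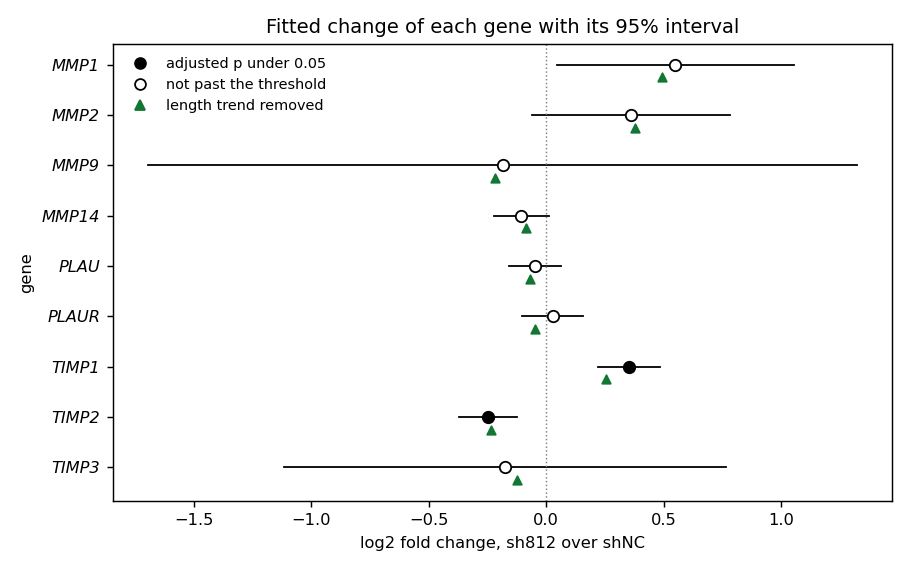
Log2 fold change of sh812 over shNC (horizontal axis) for the 9 genes, with 95% intervals as bars; filled circles passed an adjusted p of 0.05, open ones did not, and triangles give the value with the length trend removed. Only TIMP1 (0.35) and TIMP2 (-0.25) are filled, and the intervals are wide for MMP9 and TIMP3.

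Divided by exon length, the levels of the 9 genes covered a wide range. PLAU had 415 to 434 CPM per kb of exon and TIMP1 had 295 to 421, and their ranges touched because TIMP1 exceeded PLAU in sh812 replicate 2. MMP14 followed at 103 to 116, TIMP2 at 40.3 to 50.4 and PLAUR at 28.7 to 30.8. At this exon length these were separated beyond the spread over libraries. Exon length here joined all annotated exons of a gene, 4457 bases for PLAUR and 5633 for TIMP2. Their principal transcripts have 1548 and 3652 bases, so the order of PLAUR and TIMP2 depends on the length used. The other per-kb levels, shares and ratios between genes depend on it too. MMP1 stood at 1.14 to 1.89 and MMP2 at 0.673 to 1.04. TIMP3 at 0.151 to 0.275 and MMP9 at 0.0732 to 0.176 overlapped and could not be ordered. In this per-kb sum, PLAU took 46.8% and 45.6% in shNC and 43.7% and 40.6% in sh812, and TIMP1 took 32.1% and 33.8%, then 38.1% and 41.2%.

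**Figure D3:**
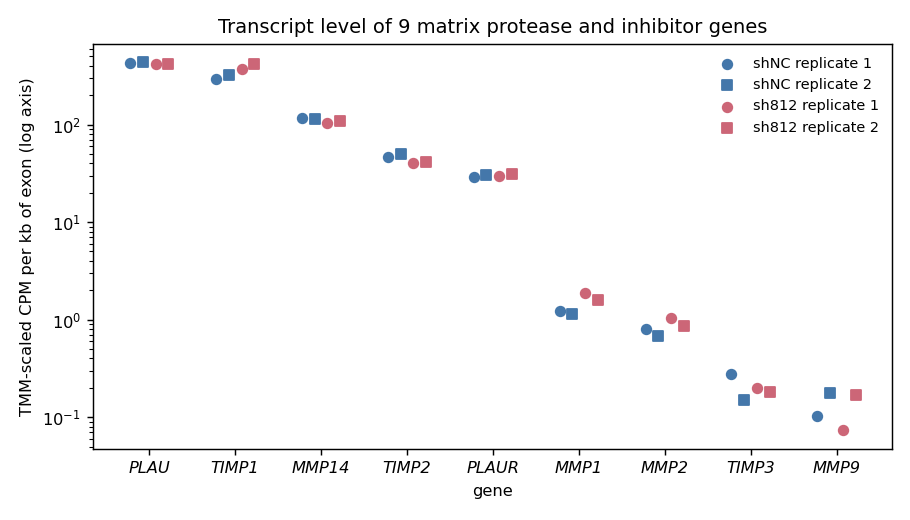
TMM-scaled CPM per kb of exon (log axis) for each gene in the 4 libraries, ordered by mean level. The 5 genes on the left lie above 28 CPM per kb in every library, and the 4 on the right below 2.

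Promoter sequence was at hand for 5 of the 9 genes, namely MMP14, PLAU, PLAUR, TIMP1 and TIMP3 (RefSeq, GRCh38.p14, 250 bases before to 50 after a start site). Those of TIMP1, which was called, and PLAUR, which was not, are shown because each holds an AP-1 type match, AP-1 being a transcription factor known to drive both inhibitor and protease genes. Capitals mark matches, on either strand, to TGAGTCA (AP-1), TGAGTAA (an AP-1 variant), AGGAAG (Ets) and GGGCGG (Sp1).
TIMP1, chrX:47582186-47582485, plus strand: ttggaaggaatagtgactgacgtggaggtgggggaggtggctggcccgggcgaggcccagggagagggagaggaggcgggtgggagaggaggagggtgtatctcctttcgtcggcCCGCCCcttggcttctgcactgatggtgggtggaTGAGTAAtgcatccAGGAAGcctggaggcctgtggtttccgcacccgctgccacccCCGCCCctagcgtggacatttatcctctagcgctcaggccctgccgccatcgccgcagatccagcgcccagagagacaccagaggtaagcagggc
PLAUR, chr19:43670120-43670419, minus strand: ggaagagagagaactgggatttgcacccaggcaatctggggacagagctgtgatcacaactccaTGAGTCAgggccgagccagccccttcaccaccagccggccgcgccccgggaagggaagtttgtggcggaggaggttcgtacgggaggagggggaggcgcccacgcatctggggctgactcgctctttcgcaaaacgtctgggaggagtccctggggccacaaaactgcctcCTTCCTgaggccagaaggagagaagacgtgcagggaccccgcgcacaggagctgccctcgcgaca
In TIMP1 the TGAGTAA match begins at position -101 from the start site and an AGGAAG match at position -87. In PLAUR the TGAGTCA match begins at position -186. Of 35116 promoter windows, 4.95% held TGAGTCA, 2.57% held TGAGTAA, 33.6% held AGGAAG and 45.0% held GGGCGG. Neither AP-1 form was found in the windows of MMP14, PLAU or TIMP3. These matches are descriptions of letters and say nothing of binding.

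Of 18 other genes listed around plasminogen activation, 14 were tested, and 4 were called higher and 4 lower. That is 57.1%, against 10.8% of all genes tested, in a list chosen with earlier results of these data known. The median log2 fold change of the 14 was -0.065. MRC2, an endocytic collagen receptor that associates with PLAUR, was at 62.2 and 63.5 CPM in shNC and 36.2 and 35.3 CPM in sh812. It fell by 43.1% (log2 fold change -0.81, edgeR adjusted p = 9.87e-08). PLAT, the tissue-type plasminogen activator, was lower (log2 fold change -0.30, edgeR adjusted p = 0.0208), as was LRP1, an endocytic receptor that clears inhibited PLAU (-0.23, edgeR adjusted p = 0.0271).

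The plasminogen-binding genes S100A10 (log2 fold change 0.27, edgeR adjusted p = 0.00302), PLGRKT (0.41, edgeR adjusted p = 0.0224) and ENO1 (0.21, edgeR adjusted p = 0.0244) were higher, and ANXA2, the partner of S100A10, had 0.14 (edgeR adjusted p = 0.112). TNFRSF11B, a decoy receptor that the list also held, was the fourth gene called higher. MRC2 kept its call with each library left out and under every other alternative tried. The calls of PLAT (edgeR adjusted p = 0.368) and LRP1 (adjusted p = 0.588) were lost without sh812 replicate 1, and that of S100A10 without sh812 replicate 2 (adjusted p = 0.118). ENO1 lost its call without either sh812 library (adjusted p = 0.151 and 0.254), and PLGRKT without shNC replicate 1 (adjusted p = 0.0894) or sh812 replicate 1 (adjusted p = 0.29). PLAT (adjusted p = 0.0516) and PLGRKT (adjusted p = 0.0696) also lost it with DESeq2. TNFRSF11B stayed called in 6 of 13 alternatives. With the length trend removed, 5 of the 14 were called, 2 higher and 3 lower, and the calls lost included LRP1 (edgeR adjusted p = 0.202) and PLGRKT (adjusted p = 0.0799). The plasminogen gene PLG itself had 0 counts in all 4 libraries.

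Of 19 other metalloproteinases and TIMP4, 11 genes were tested and 1 was called, which is 9.09% against 10.8% of all genes tested. MMP3, stromelysin 1, which can activate the MMP1 precursor, was at 2.95 and 4.11 CPM in shNC and 7.64 and 8.19 CPM in sh812. Both sh812 libraries were higher, with a log2 fold change of 1.17 (SE 0.19, edgeR adjusted p = 0.000162) that was called in all 13 alternatives, at 0.94 to 1.43. MMP3 lies on chromosome 11 from 102835801 to 102843803, in the same cluster as MMP1. Of the other tested genes of that cluster, MMP13 had 0.65 (edgeR adjusted p = 0.183), MMP10 had 0.21 (edgeR adjusted p = 0.867) and MMP7 had -0.71 (edgeR adjusted p = 0.569). The median of the 11 genes was 0.21, and 8 had a positive value, as did 8232 of all 16802 genes tested. At an unadjusted edgeR p under 0.05, 3 were higher and 0 lower. Such p-values were common, as a gene with an unadjusted edgeR p of 0.0491 ranked 4124 of all 16802 genes tested. The list gave 2 calls with the length trend removed and 3 without shNC replicate 1, all higher. The 9 genes not tested had at most 8 counts in a library.

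**Figure D4:**
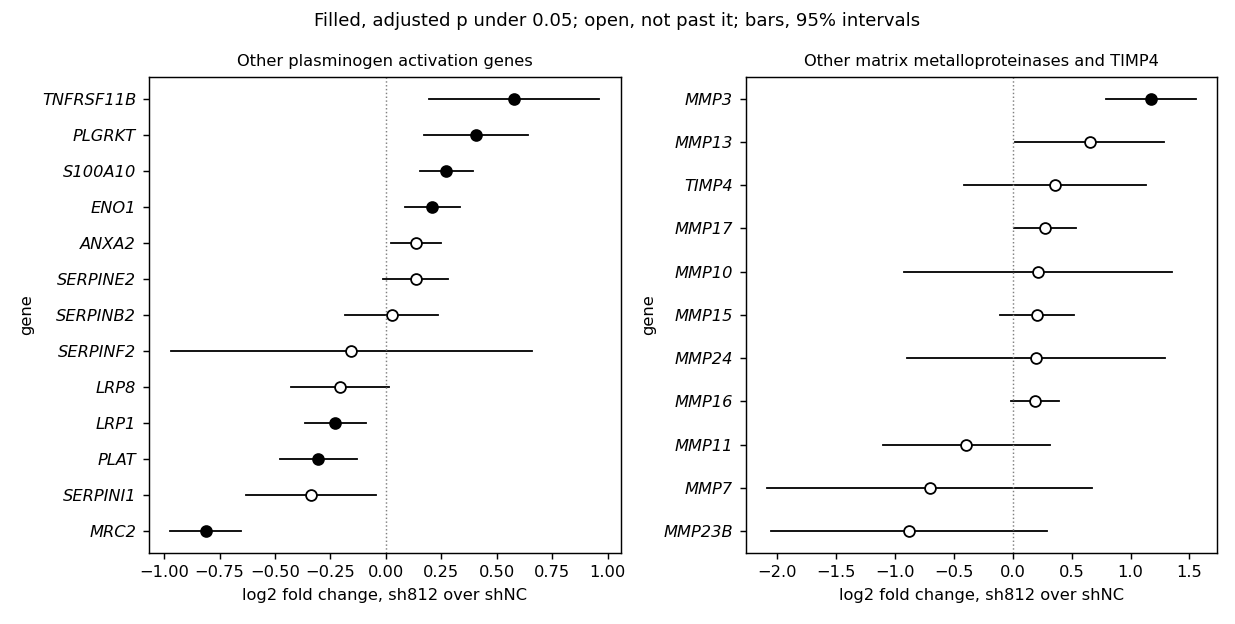
Log2 fold change of sh812 over shNC (horizontal axis) with 95% intervals for the tested genes of 2 lists reported here, filled where an adjusted p of 0.05 was passed. MRC2 (-0.81) lies farthest to the left in the plasminogen panel, and MMP3 (1.17) is the 1 filled point in the metalloproteinase panel.

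Further lists of pericellular proteases, also chosen with earlier results known, showed calls in both directions. Fitted values were more often negative. In the ADAM and ADAMTS list, 4 were positive and 19 negative (median log2 fold change -0.167). In the list of other pericellular proteases and inhibitors, 11 were positive and 20 negative (median -0.118). Of all genes tested, 8232 were positive and 8570 negative. The length trend was not removed from these values, and its part in the signs was not tested. With it removed, ADAM12 had -0.388 in place of -0.479. The ADAM and ADAMTS list then gave 2 calls in place of 3, and the pericellular list 11 in place of 10. Among ADAM and ADAMTS genes, relatives of the metalloproteinases, 23 of 30 were tested and 13% of these were called, against 10.8% of all genes tested. ADAM8 was higher (log2 fold change 0.32, edgeR adjusted p = 0.0138), while ADAM12 (-0.48, edgeR adjusted p = 0.0051) and ADAMTS9 were lower. ADAM8 lost its call without sh812 replicate 2 (0.13, edgeR adjusted p = 0.588), ADAM12 without sh812 replicate 1 (edgeR adjusted p = 0.0539), and ADAMTS9, at about 1 CPM or less, stayed called in 7 of 11 alternatives. Of 40 other pericellular proteases and inhibitors, 31 were tested, 3 were called higher and 7 lower (32.3%, against 10.8% of all genes tested). CTSB, a cathepsin able to activate the PLAU precursor, was lower (-0.34, edgeR adjusted p = 0.000544), and the dipeptidyl peptidase gene DPP4 was higher (0.63, edgeR adjusted p = 0.000162), in all 13 alternatives each. SERPINA1, an inhibitor of serine proteases at under 4 CPM, was lower in all 12 of its alternatives (-2.23, edgeR adjusted p = 0.000177). The other called genes of this list each lost the call in at least 1 alternative. TLL1 kept it in 8 of 13, TFPI in 9 of 13 and CTSS in 9 of 12. Of 14 regulators of matrix proteases, 11 were tested, 2 were called higher and 4 lower (54.5%, against 10.8% of all genes tested). LCN2, whose product binds MMP9, was higher (0.55, edgeR adjusted p = 1.66e-06) and ITGB1, the integrin beta 1 chain, was lower (-0.57, edgeR adjusted p = 9.97e-08), in all 13 alternatives each, as was the caveolae gene CAV1, which was higher (0.37, edgeR adjusted p = 9.36e-05). The other called regulators, EGFR, THBS1 and LGALS3BP, were lower and kept the call in 10 of 13 alternatives each. EGFR (edgeR adjusted p = 0.0546) and THBS1 (edgeR adjusted p = 0.0647) lost it with the length trend removed. The inhibitor RECK and the inducer BSG were not called, at 0.073 and -0.026.

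Among 10838 other genes with a mean of at least 5 CPM, the profiles nearest to TIMP1 over the 4 libraries were those of MGAT4B, SLCO4A1 and FTH1P2. Their Euclidean distances in log2 CPM, centred on the shNC mean, were 0.0398, 0.0404 and 0.0429. Their log2 fold changes were 0.35, 0.33 and 0.33. FTH1P2 is a pseudogene copy of FTH1, so its count is uncertain. With 4 libraries, likeness of this kind describes the profiles only.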

How the data were processed

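Poly(A) RNA of 4 PC3 libraries was sequenced with a strand-marking dUTP method as paired reads of 150 bases, per the labels' protocols. The authors deposited 1 table of raw counts per gene. The submitters' processing notes name fastp, STAR 2.7.1a, featureCounts, DESeq2 and the build hg38; the annotation release, the strand setting and whether reads or pairs were counted are not given in the sources used here. The deposited counts of all 4 libraries were fitted with edgeR 4.0.16 under R 4.3.3 (TMM factors, default filterByExpr, glmQLFit, glmQLFTest, no covariate), with Benjamini-Hochberg adjustment over 16802 genes and a call at an adjusted p under 0.05. Standard errors and 95% intervals come from the quasi-likelihood F statistic, and intervals cover the spread between libraries. Alternatives included DESeq2 1.42.0, limma-voom 3.58.1 and an offset that takes out, per library, a lowess curve (span 0.3) against the length of the longest transcript. The fit was tested on simulated data. Positions and exon lengths are those of GENCODE 29 (GRCh38), joined on the Ensembl identifier.

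The members and lists were chosen with earlier results of these data known. All 9 members and METTL3 are named, and from each list up to 3 called genes with the smallest p in each direction, plus genes with the smallest profile distance to TIMP1. From the ADAM, pericellular and regulator lists fewer are given with values. ANXA2, MMP7, MMP10, MMP13, RECK, BSG, LRP1, TNFRSF11B and PLG were named after their values were seen. Replicate pairs differed by more than sampling noise (chi-square per gene 8.43 and 4.51), so each library counts as 1 replicate. Some genes of the lists and markers are counted with their list but not reported here.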

Additional observations from a re-analysis of the deposited data

How the results depend on the processing

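The 9 genes and METTL3 were refitted with RLE, upper quartile or no scaling factors, a mean CPM minimum of 1 or no filter, DESeq2, limma-voom, the replicate block, the length trend removed and each library left out. MMP9 and TIMP3 fell under the CPM minimum and had no adjusted p in DESeq2. METTL3 was called in each. Of the 9 genes, 2 were called in every alternative except when sh812 replicate 1 (1 called) or sh812 replicate 2 (0 called) was left out, where a group with 1 library is assumed to vary like the other; the range over left-out libraries was 0 to 2. TIMP1 ran from 0.251 to 0.448 and TIMP2 from -0.305 to -0.183 over these fits. Over all genes, 587 to 3252 were called, against 1822, the lowest without sh812 replicate 1 and the highest without shNC replicate 2; the cause was not tested. Both groups have replicates numbered 1 and 2 in the labels, with no word on what a number shares; deviations from the group means correlated at 0.0164 over genes between libraries of 1 number. With the replicate block TIMP1 had 0.351, TIMP2 -0.247 and METTL3 was still called, and the count of members called stayed at 2. The other metalloproteinase list gave 2 calls with the length trend removed, against 1, and 1 to 3 with a library left out. The plasminogen list gave 5 with the length trend removed, against 8, and 3 to 11 with a library left out. The ADAM list gave 5 with library size alone, against 3, and 1 to 6 with a library left out. The pericellular list gave 6 with DESeq2, against 10, and 3 to 14 with a library left out, and the regulator list 3 to 7, against 6. For the changes under the other scaling, DESeq2 and the length trend, the cause was not tested. PLAUR (-0.047 to 0.078), MMP9 (-0.899 to 0.282) and TIMP3 (-0.525 to 0.329) took both signs over the alternatives and were called in none. MMP9 and TIMP3, with 6 to 48 counts, are limited by depth.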
